A study of Mus musculus with 12 samples.

Results

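The core proteins of the small nucleolar ribonucleoproteins (snoRNPs) were examined in mouse CD8 T cells with a wild type or a scurfy Foxp3 gene. The set holds 8 genes out of the 11581 in the deposited table of unstimulated cells. Nop10, Nhp2, Gar1 and Dkc1 make up the H/ACA box complex, and Nop56, Nop58, Fbl and Nhp2l1 make up the C/D box complex. Rows were taken by gene symbol, and all 8 genes had a row. The set was chosen by the scurfy and wild type values of this same table, so the differences between genotypes in these 8 genes are given as a description and support nothing. Where the threshold of the table-wide fit is mentioned for them, it only counts rows and is not a test of the set.

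A snoRNP is a particle in the nucleolus in which a small guide RNA pairs with ribosomal RNA and a protein enzyme modifies a nucleotide at that place. In H/ACA box particles the enzyme is dyskerin, encoded by Dkc1, which turns uridine into pseudouridine, and Nop10, Nhp2 and Gar1 complete the particle. The same proteins also bind telomerase RNA, and mutations of several of them cause dyskeratosis congenita. In C/D box particles the enzyme is fibrillarin, encoded by Fbl, which methylates the ribose, while Nop56 and Nop58 form the scaffold and Nhp2l1, also named Snu13, binds the kink-turn of the guide RNA. Lymphocytes raise ribosome production when they leave rest and divide, so these genes are usually read as part of the growth programme.

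The cells came from mixed bone marrow chimeras on a CD45.2+ C57BL/6 J background, taken 2 months after reconstitution. In 1 group the donors were OT-1 Foxp3Scurfy CD45.1+/2+ mice and in the other OT-1 Foxp3wt CD45.1+/2+ mice, each mixed with CD45.2+ donor marrow. OT-1 is a transgenic T cell receptor for the SIINFEKL peptide and was shared by both groups, and scurfy is a loss-of-function allele of Foxp3, the lineage factor of regulatory T cells. Each group had 3 libraries of purified, unstimulated CD8 T cells. The peptide-stimulated libraries, given SIINFEKL for 6 h, were not analysed here. Nothing in the labels ties the libraries of a group to different mice. The p-values below therefore reflect the spread among these libraries only, and that spread may be technical.

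The recovered depth was 8852518 to 23149523 reads per library. All 9 CD8 T cell markers had a row. Of these 8 had a positive log2 fold change (scurfy minus wild type, median 0.26). In 4 the groups did not overlap, with scurfy higher, where 27.1% of all genes did not overlap in either direction. Cd3d (0.76) and Cd2 (0.43) rose by limma, where 4.47% of all genes were called. Cd8a (0.12), Cd8b1 (0.004), Lck (-0.09), Cd3e (0.27) and Zap70 (0.26) overlapped. The sum over the 9 markers ranged from 75292 to 80963 normalized counts in scurfy and from 67033 to 67724 in wild type. Foxp3 was not analysed here, so the genotype was not checked by its transcript. Of 10 B cell markers 7 had a row, all 7 negative (median -0.99). The groups did not overlap for 4 of them, H2-Aa, H2-Ab1, H2-Eb1 and Cd74, and H2-Aa fell (-3.97). The first 2 of these were at 0 in some scurfy library. The B cell sum overlapped between genotypes (9895 to 11352 in scurfy, 10971 to 11753 in wild type) and was mostly Ighm. Without Ighm it was 308.8 to 391.3 in scurfy and 495.2 to 549.1 in wild type, a split made after seeing the data. Myeloid markers (2 of 10 with a row, Cst3 rose) summed to 1463 to 1579 in scurfy and 850.2 to 1172 in wild type. Erythroid markers (1 of 6, Car2, which fell) gave 101.3 to 156.0 and 231.5 to 314.7. Natural killer cell sums overlapped, at 3893 to 4238 and 3421 to 4163 (3 of 6, Nkg7 rose and Klrd1 fell). None of the 3 CD4 T cell markers had a row. The part of these cells in the values below was not tested. In bulk RNA fewer cells of a type, less RNA per cell and marker expression by the CD8 T cells cannot be told apart.

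Along the first principal component scurfy library 3 stood apart from the other scurfy libraries. Over all 11581 genes it lay at -43.5, against -14.4 and -18.6 for scurfy 1 and 2. Which wild type library lay farthest on the other side depended on the genes used. It was library 1 over all genes (33.8, with library 3 at 30.4) and library 3 over the 9188 genes with a mean of at least 50 normalized counts (24.4, with library 1 at 15.6). The second gene set was tried after the first had been seen. Values are therefore also given below without scurfy 3 and wild type 3, a pair chosen with these results known.

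Guide RNAs of both classes lie inside some of these genes, so 3 are shown here as the RNA partners of the particles. GENCODE M21 places 10 annotated snoRNAs on the same strand inside 3 of the 8 genes: 5 in Nop56, 4 in Nop58 and 1 in Dkc1. The other 5 genes held none. In Snord110 and Snord11 capitals mark the C box core (TGATG) and the D box (CTGA), which Nop56, Nop58, fibrillarin and Nhp2l1 assemble on. In Gm24451 capitals mark the ACA that lies 3 bases before the end of an H/ACA box RNA. Searched near their ends for these letters, 7 of the 10 matched the C/D boxes and 1 the ACA. Gm25520 in Dkc1 and Snord57 in Nop56 matched neither. The 3 shown are 5′ to 3′ on the plus strand of GRCm38, and none was measured by this poly-A protocol as a mature snoRNA.
Snord110 in Nop56, chr2:130275506-130275573: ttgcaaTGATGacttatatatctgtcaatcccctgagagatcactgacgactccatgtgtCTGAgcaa
Gm24451 in Nop56, chr2:130276237-130276369: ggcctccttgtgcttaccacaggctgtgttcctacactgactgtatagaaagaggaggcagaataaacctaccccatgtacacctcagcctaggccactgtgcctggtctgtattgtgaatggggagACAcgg
Snord11 in Nop58, chr1:59704790-59704873: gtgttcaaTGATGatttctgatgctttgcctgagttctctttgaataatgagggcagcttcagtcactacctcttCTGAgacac

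The start regions of Nop10, Nhp2 and Gar1 are shown because these genes serve 1 complex and differed in direction. Each sequence runs from 250 bases before to 50 bases after the start, 5′ to 3′ on the gene's strand, from RefSeq on GRCm38.p6. Of the 8 genes, 7 matched an entry. Capitals mark matches, on either strand, to the CCAAT box (CCAAT), the ETS site (CCGGAAG), the GC box (GGGCGG), the TATA box (TATAAA) or the E-box bound by Myc (CACGTG).
Nop10, chr2:112261676-112261975, plus strand: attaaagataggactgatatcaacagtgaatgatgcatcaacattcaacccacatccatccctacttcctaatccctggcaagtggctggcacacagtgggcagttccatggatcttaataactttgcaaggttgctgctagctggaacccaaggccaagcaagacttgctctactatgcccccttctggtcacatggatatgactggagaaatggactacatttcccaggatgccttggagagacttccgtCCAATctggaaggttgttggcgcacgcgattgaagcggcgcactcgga
Nhp2, chr11:51619523-51619822, plus strand: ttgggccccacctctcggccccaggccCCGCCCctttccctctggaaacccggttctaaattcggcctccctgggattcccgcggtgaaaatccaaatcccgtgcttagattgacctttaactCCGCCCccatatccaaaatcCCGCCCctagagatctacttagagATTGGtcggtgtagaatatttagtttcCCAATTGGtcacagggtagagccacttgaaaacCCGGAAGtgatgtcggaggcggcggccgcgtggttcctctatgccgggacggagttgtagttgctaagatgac
Gar1, chr3:129831347-129831646, minus strand: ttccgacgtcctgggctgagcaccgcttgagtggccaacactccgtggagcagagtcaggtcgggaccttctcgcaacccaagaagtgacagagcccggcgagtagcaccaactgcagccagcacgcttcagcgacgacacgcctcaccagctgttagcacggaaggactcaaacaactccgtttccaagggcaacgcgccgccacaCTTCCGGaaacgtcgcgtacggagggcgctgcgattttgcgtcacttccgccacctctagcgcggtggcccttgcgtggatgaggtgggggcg

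The 3 promoters carried different letters. Nop10 held 1 CCAAT match and no other. Nhp2 held 3 CCAAT matches, of which a palindromic pair overlaps, with 3 GC boxes and 1 ETS site. Gar1 held 1 ETS site. Across the 7 promoters, CCAAT was found in 4 (37.9% of all 27025 promoters), the GC box in 4 (35.9%), the ETS site in 3 (9.12%), the TATA box in 1 (14.2%) and the E-box in 0 (7.24%). A match is a description of these letters and not a binding site.

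Nop10 carried the largest difference of the set. This small protein binds dyskerin in the H/ACA particle, and its gene lies at chr2:112261926-112263269 (GRCm38, plus strand). The deposited values are normalized counts, that is, reads divided by a size factor per library. In scurfy libraries 1, 2 and 3 Nop10 read 553.4, 673.7 and 1140 normalized counts, against 293.8, 262.9 and 173.7 in the wild type libraries in the same order of number. The lowest scurfy library lay above the highest wild type library, and the spread was widest in scurfy, where library 3 stood well above the other two. The means were 789 ± 310 and 243.5 ± 62.3 (SD, n = 3), a 3.24-fold ratio, and the log2 fold change was 1.66 with a standard error (SE) of 0.25. Only 0.449% of all genes had a higher log2 fold change, which put Nop10 at rank 53 from the top. Without scurfy 3 and wild type 3 the log2 fold change was 1.13.

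Nhp2 had the highest counts and the smallest coefficients of variation of the 8 genes. Its protein holds the upper part of the H/ACA guide RNA, and its gene lies at chr11:51619735-51623714 (plus strand). Its normalized counts were 2223, 2136 and 2356 in the scurfy libraries and 1640, 1579 and 1627 in the wild type libraries. All scurfy libraries lay above all wild type libraries. The coefficient of variation was 4.95% in scurfy and 1.99% in wild type, the latter below the counting error of up to 2.85%. The means were 2238 ± 111 and 1615 ± 32.2 (SD, n = 3), and the log2 fold change was 0.47 (SE 0.10), a 1.39-fold ratio.

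Gar1, the H/ACA protein that sits on the catalytic domain of dyskerin and helps release the product, was lower in scurfy. Its normalized counts were 398.4, 399.1 and 319.2 in the scurfy libraries and 454.6, 505.6 and 553.1 in the wild type libraries, from the gene at chr3:129824912-129831396 (minus strand). The groups did not overlap, and the log2 fold change was -0.44 (SE 0.15).

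Dkc1, the enzyme of the H/ACA complex, overlapped between genotypes. The scurfy libraries read 343.9, 519.9 and 690.3 normalized counts and the wild type libraries 454.6, 399.7 and 489.3, from the gene at chrX:75095854-75109777 (plus strand). The scurfy libraries spread 2.01-fold from lowest to highest and enclosed every wild type value. The log2 fold change was 0.16 (SE 0.21), and without scurfy 3 it was -0.08.

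In the C/D box complex, Nhp2l1 was higher in scurfy and Nop58 lower. Nhp2l1, which also binds U4 small nuclear RNA in the spliceosome, lies at chr15:82040525-82047598 (minus strand). The scurfy libraries read 456.5, 573.6 and 385.4 normalized counts and the wild type libraries 342.9, 383.8 and 267.7. The lowest scurfy library was only just above the highest wild type library, and the log2 fold change was 0.50 (SE 0.18). Nop58, a scaffold protein of the particle, lies at chr1:59684971-59719044 (plus strand). Normalized counts were 307.6, 352.7 and 269.5 with the scurfy allele and 362.9, 434.5 and 505.2 without it. The groups again did not overlap, by a narrow gap, and the log2 fold change was -0.48 (SE 0.17).

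Nop56 and Fbl overlapped between genotypes. Nop56, the other scaffold protein, lies at chr2:130274430-130279313 (plus strand) and gave normalized counts of 278.5, 297.8 and 417.3 (scurfy) against 308.4, 283.2 and 253.5 (wild type). Scurfy library 3 was its only value above the wild type range. Its log2 fold change was 0.21 (SE 0.18), and -0.04 without scurfy 3 and wild type 3. Fbl, the methyltransferase, lies at chr7:28169710-28179269 (plus strand) and gave normalized counts of 397.2, 324.6 and 322.7 (scurfy) against 396.1, 349.0 and 467.5 (wild type). Its log2 fold change was -0.21 (SE 0.16).

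**Figure D1:**
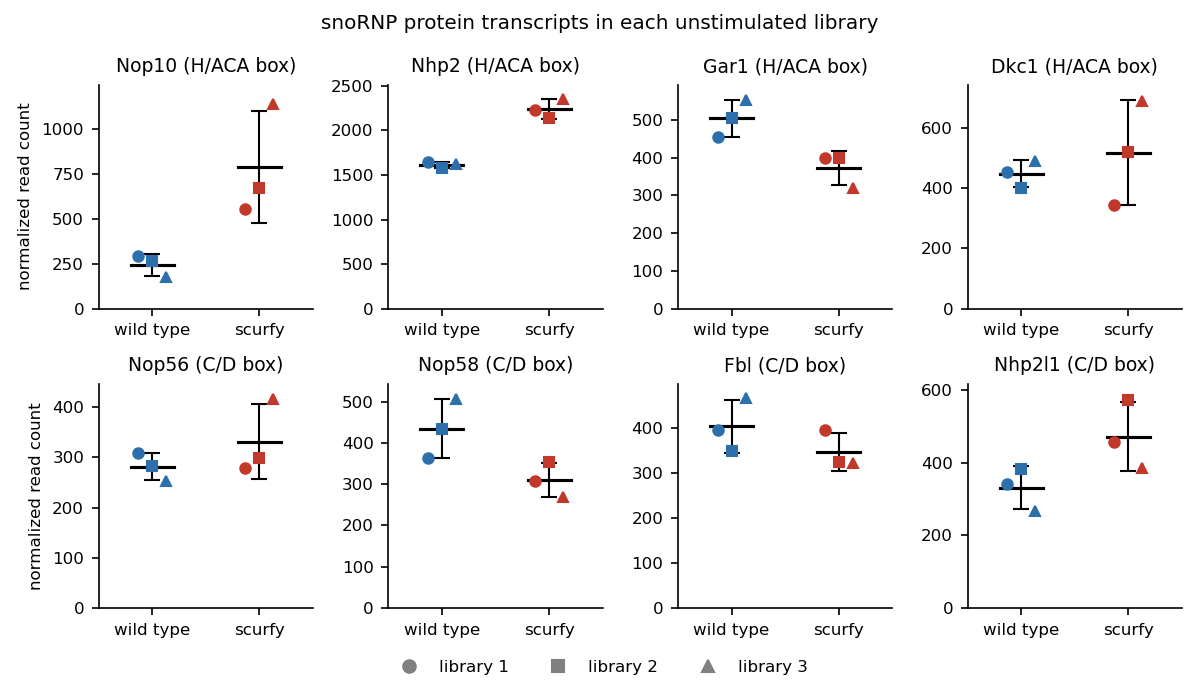
Normalized read count (vertical axis, from 0, a separate scale for each gene) of the 8 snoRNP protein genes in 3 wild type (blue) and 3 scurfy (red) unstimulated libraries; symbols mark the library number, long bars the mean and whiskers 1 SD. The genotypes do not overlap for Nop10, Nhp2 and Nhp2l1 (higher in scurfy) or Gar1 and Nop58 (lower), and overlap for Dkc1, Nop56 and Fbl.

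Counted over the set, 2 of the 8 genes, Nop10 and Nhp2, were past an adjusted p of 0.05 in limma, where 4.47% of all genes were, and both were higher in scurfy, where 2.12% of all genes were called higher. The groups did not overlap for 5 of the 8, against 27.1% of all genes. Because the set was chosen on this comparison, nothing is read from these counts. The authors' deposited table also called 2 of the 8, where it called 8.9% of the 10008 genes with an adjusted p, with log2 fold changes of 1.70 for Nop10 and 0.47 for Nhp2.

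The genes of 1 complex did not keep a fixed proportion. The ratio of Nop10 to Gar1 was 1.39, 1.69 and 3.57 in the scurfy libraries, against 0.646, 0.520 and 0.314 in the wild type libraries. Nop10 thus exceeded Gar1 in every scurfy library and was below it in every wild type library. Against Dkc1 the ratio of Nop10 was 1.61, 1.30 and 1.65 in scurfy and 0.646, 0.658 and 0.355 in wild type. In the C/D complex the ratio of Nhp2l1 to Nop58 was 1.48, 1.63 and 1.43 in scurfy and 0.945, 0.883 and 0.530 in wild type. These ratios are of counts not divided by exonic length. Per kilobase, Nop10 (264.9, 237.1 and 156.7) lay above Dkc1 (110.3, 97.0 and 118.7) in the wild type libraries too. Nhp2l1 (117.3, 131.2 and 91.6) likewise lay above Nop58 (33.7, 40.4 and 47.0) there. The ratio of Nop56 to Nop58 overlapped, since the lowest scurfy value was 0.844 and the highest wild type value 0.850. Nhp2l1 and Nhp2, related proteins of the 2 complexes, kept a ratio of 0.212 ± 0.0529 in scurfy and 0.206 ± 0.0393 in wild type (SD, n = 3).

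**Figure D2:**
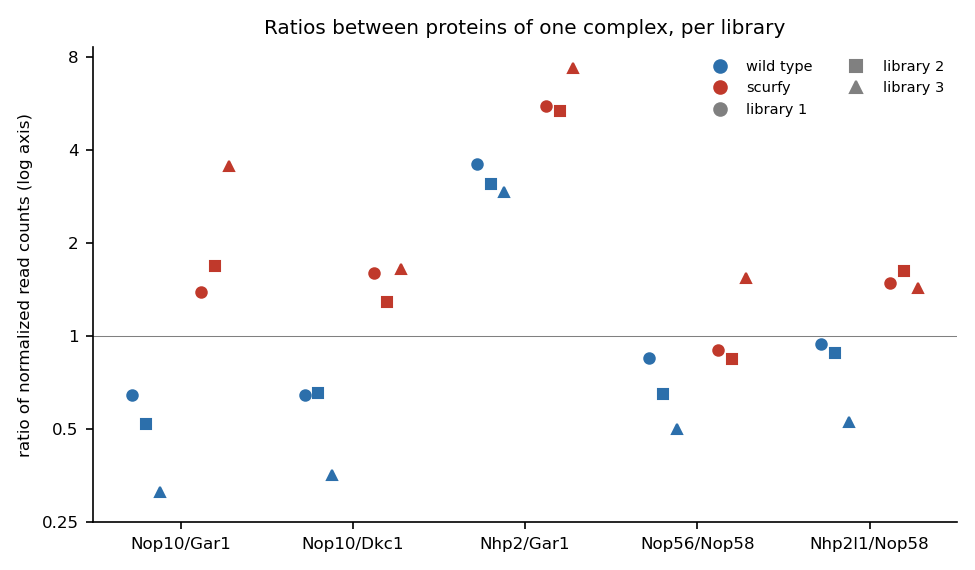
Ratio of normalized read counts, not divided by length, between genes of 1 complex (vertical log axis) in each wild type (blue) and scurfy (red) library. Symbols mark the library number. Nop10/Gar1, Nop10/Dkc1 and Nhp2l1/Nop58 lie below 1 in all 3 wild type libraries and above 1 in all 3 scurfy libraries, while Nop56/Nop58 overlaps. Per kilobase, Nop10/Dkc1 and Nhp2l1/Nop58 lie above 1 in the wild type libraries too.

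Summed over its 4 genes, the H/ACA complex reached 3519, 3728 and 4505 normalized counts in the scurfy libraries, against 2843, 2747 and 2843 in the wild type ones. Without Nop10 the sums were 2965, 3055 and 3365 against 2550, 2484 and 2669, most of which was Nhp2. The C/D sums were level, with a mean of 1461 ± 79.1 in scurfy and 1452 ± 41.8 in wild type (SD, n = 3), as Nhp2l1 and Nop58 lay on opposite sides. Per kilobase of exonic length, Nhp2 was highest (1953 normalized counts per kilobase in scurfy, 1409 in wild type). Nop10 (711 and 219.5) came next in scurfy, but in wild type it lay below Gar1 (217 and 294), by little in library 1 (264.9 against 265.2). Nhp2l1 (161 and 113) and Dkc1 (126 and 109) followed. Fbl (82.7 and 96.0), Nop56 (80.8 and 68.7) and Nop58 (28.8 and 40.4) were lowest. Exonic length here joins the exons of all annotated transcripts. For Fbl it is 4209 bases, against 1197 in its transcript with the longest coding part. For Dkc1 these are 4121 and 2804, and for Nop56 4099 and 1877. The order of genes therefore rests on the length used. The protocol primes at the poly-A tail, so division by length may place long transcripts too low, and neighbours such as Fbl and Nop56 in scurfy, or Nhp2l1 and Dkc1 in wild type, differed by little beside their spread. Nop10 made up 23.2 ± 6.07% of the H/ACA level per kilobase in scurfy and 10.8 ± 2.66% in wild type (SD, n = 3).

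The log2 fold change moved with exonic length across the whole table. Exonic length joins all annotated transcripts of a gene and can exceed that of 1 transcript, as for Fbl above. Gar1 has 1271 bases in its transcript with the longest coding part, so the classes are not classes of transcript length. The median log2 fold change was 0.33 over the 1098 genes with under 1000 exonic bases and -0.05 over the 5883 genes with more than 4000. Nop10 (1109 bases) and Nhp2 (1146 bases) fell in the class from 1000 to 1500 bases, where the median was 0.14. Within that class 0.686% of genes lay above Nop10 and 22.5% above Nhp2. Limma called 6.86% of that class higher in scurfy, against 2.12% of all genes. Gar1, at 1714 bases, lay below 87.7% of its class, where the median was 0.05. Nop58, with 10758 exonic bases the longest of the set, lay below 85.9% of the genes over 4000 bases. With a smooth length trend taken out of each library, Nop10 stood at 1.48, Nhp2 at 0.30 and Gar1 at -0.52 on the log2 scale. The part of length in the differences was not tested beyond this.

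**Figure D3:**
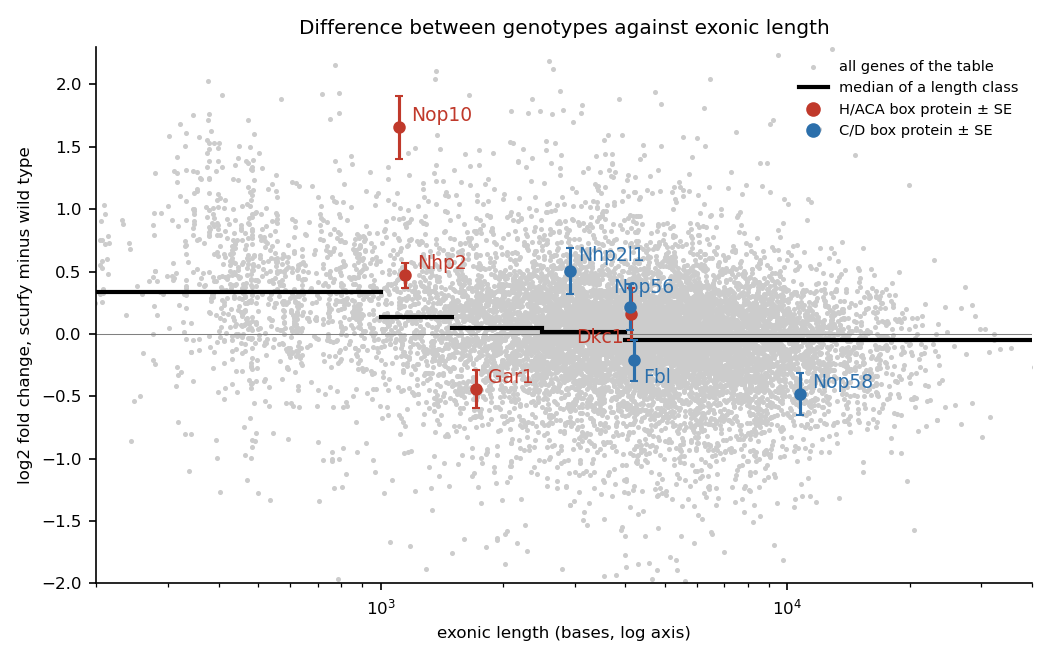
Log2 fold change, scurfy minus wild type (vertical axis), against exonic length in bases (horizontal log axis); grey points are single genes (axes cropped), black bars class medians, coloured points the 8 snoRNP protein genes with 1 SE (red H/ACA, blue C/D). Class medians fall from 0.33 under 1000 bases to -0.05 over 4000, and Nop10 lies far above its class.

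Copies and overlapping genes limit some of these values. A search of the coding sequences against GENCODE transcripts (at least 90% identity over at least 100 bases) found 22 genes with such a match. They are called near copies here, and 9 matched Nhp2l1 and 6 Nop56. Only 2, both matching Fbl, had a row in the table. The processed pseudogene Gm5812 stood at 4.73 to 17.0 normalized counts. The other was the protein-coding gene Tulp4, a transcript of which matched Fbl over 674 bases. Its 251 to 378 counts are those of the whole Tulp4 gene and not of an Fbl copy. Gar1 and Nop58 had no near copy. The strand setting of the counting is not given in the sources used, and antisense exons overlap Nhp2 (Rmnd5b, 44 bases), Dkc1 (Mpp1, 45 bases) and Nop56 (Idh3b, 5 bases).

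The genes that build snoRNPs or work beside them were tested in the same fit. Of 114 listed partner genes in 8 lists, 108 had a row, and 2 rose and 0 fell by limma at an adjusted p of 0.05, which is 1.85% against 4.47% of all genes. At an unadjusted p under 0.05 there were 22 (20.4%, against 21.2% of all genes), and the groups did not overlap for 29 (26.9%, against 27.1%). On the recovered reads edgeR called 2, and DESeq2 called 4 of 106 (3.77%, against 8.9% of all genes), namely Znrd1, Tcof1 and Znhit3 as higher and Exosc3 as lower. Both genes that rose by limma serve RNA polymerase I transcription. Znrd1, a subunit of RNA polymerase I, had a normalized count of 1053 ± 228 among wild type libraries and 1518 ± 90.6 among scurfy libraries (SD, n = 3; log2 fold change 0.55, SE 0.14, limma adjusted p = 0.0450). Tcof1, the nucleolar protein treacle, rose from 2280 ± 323 to 3090 ± 213 (0.45, SE 0.12, limma adjusted p = 0.0467). Each call was lost in 5 of the 6 fits that left out 1 library, with adjusted p up to 0.140 for Znrd1 and 0.155 for Tcof1, both without wild type 3. Removing the length trend also ended the call of Znrd1 (limma adjusted p = 0.230). Over the 18 genes of this nucleolar list the median was 0.10.

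By limma none of the 13 measured assembly factors passed, 4 had an unadjusted p under 0.05, and the median log2 fold change was 0.03. The smallest p belonged to Znhit3, a box C/D assembly factor, with normalized counts of 359 ± 37.0 (scurfy) and 239.6 ± 43.1 (wild type; SD, n = 3; log2 fold change 0.59, SE 0.18, limma adjusted p = 0.0749). DESeq2 called it (adjusted p = 0.0374). Naf1, which holds the place of Gar1 in the immature H/ACA particle, is named after its values were seen. The scurfy libraries read 36.3, 29.3 and 42.6 normalized counts and the wild type libraries 86.4, 51.7 and 90.6. The groups did not overlap, and the log2 fold change of -1.03 (SE 0.34) had a limma adjusted p of 0.0977. Ruvbl2 had a smaller p, also without overlap, and went the other way (0.47, limma adjusted p = 0.0893). Rpap3 was lower in scurfy (-0.44, limma adjusted p = 0.228).

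In the lists of rRNA processing and modification no gene passed by limma or edgeR, and Exosc3 alone passed by DESeq2. Among 25 genes of the U3 and small-subunit processome the median was 0.04, 2 had an unadjusted p under 0.05, and Imp4 was lowest in p (0.29, limma adjusted p = 0.170). Among 12 stand-alone pseudouridine synthases the median was 0.05 and 2 had an unadjusted p under 0.05. These were Pus7 at 0.65 (limma adjusted p = 0.121) and Pus7l at -0.87 (limma adjusted p = 0.152). Among 9 genes of the list of stand-alone rRNA methyltransferases, which includes the partner protein Trmt112, the median was -0.08. In this list 3 had an unadjusted p under 0.05, and Ftsj3 stood at 0.42 (limma adjusted p = 0.151). Wbscr22 (-0.28, limma adjusted p = 0.170) and Emg1 (-0.52, limma adjusted p = 0.171) were lower in scurfy. The enzymes of both lists modify RNA without a guide. Of 15 genes of the exosome and snoRNA trimming, 13 had a positive log2 fold change (median 0.22) and 3 an unadjusted p under 0.05. Exosc3, an exosome cap subunit, had the smallest p at -0.35 (limma adjusted p = 0.0738). It passed with DESeq2 (adjusted p = 0.0406), with library size alone (limma adjusted p = 0.0189) and with the length trend removed (limma adjusted p = 0.0306). Of 8 U4/U6 partners of Nhp2l1 the median was 0.19 and 3 had an unadjusted p under 0.05. Sart3, a recycling factor, stood at -0.39 (limma adjusted p = 0.117, and 0.0272 with library size alone). Ppih (0.80, limma adjusted p = 0.173) and Prpf3 (0.49, limma adjusted p = 0.187) were higher in scurfy.

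None of the measured genes in the lists for growth or division passed by limma, edgeR or DESeq2. In the Myc network, whose factors are known to regulate snoRNP genes, 0 of 8 passed, 1 had an unadjusted p under 0.05 and the median was -0.25. Mxi1, a Myc antagonist, had the smallest p (-0.56, limma adjusted p = 0.117, and 0.0498 with library size alone). Of 26 listed cell cycle genes only 16 had a row, and Mki67 and Cdk1 were among those without one. Among these 16 genes 0 passed, 1 had an unadjusted p under 0.05 and the median was 0.02, with Ccnd3 at 0.32 (limma adjusted p = 0.168). Beside these list medians, the median over all 11581 genes was 0.01.

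**Figure D4:**
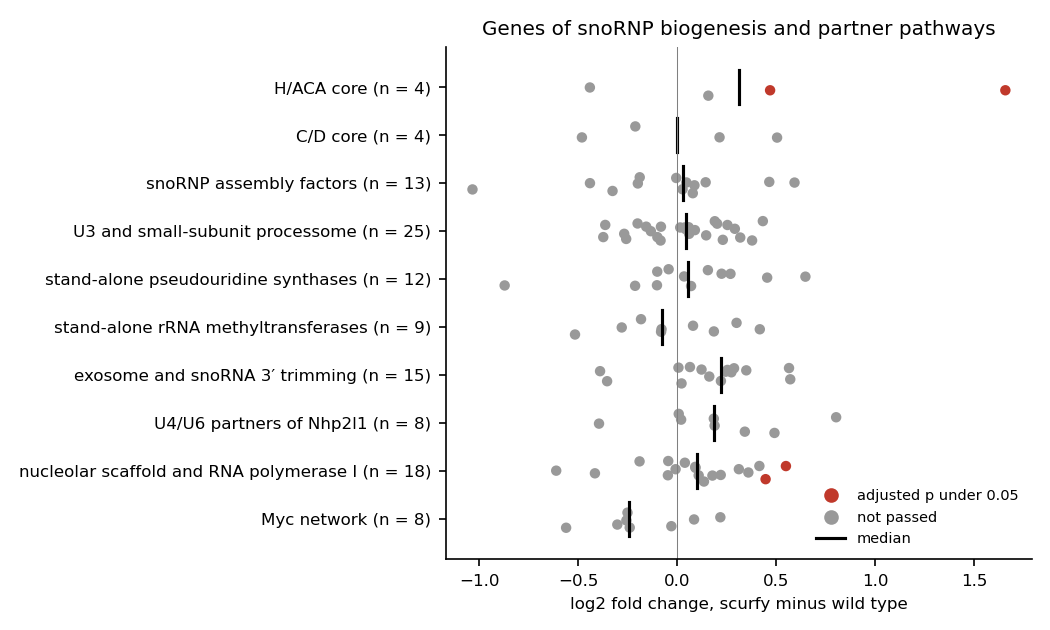
Log2 fold change, scurfy minus wild type (horizontal axis), of each gene in the H/ACA and C/D cores and in the 8 partner lists; red points passed an adjusted p of 0.05 in limma and black bars are list medians. In the partner lists 2 points are red, Znrd1 and Tcof1; the H/ACA and C/D rows hold the genes chosen by this same comparison.

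The genes whose pattern was most like that of Nop10 over the 6 libraries, by Pearson correlation of log2 values, were Gtf2ird1 (r = 0.998), Lcn4 (0.997), Gm10045 (0.997), Tmsb4x (0.996) and 1110034G24Rik (0.994). For Nop56 they were Rnf139 (0.986), Clcn4-2 (0.983), Dhx40 (0.981), ENSMUSG00000106918 (0.979) and Ptcd1 (0.978). All genes were read in the same 6 libraries, so genes that differ between the genotypes tend to correlate. In all, 444 genes correlated above 0.9 with Nop10 and 138 with Nop56, so these names are a description only.

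Across the 16 other settings the log2 fold change of Nop10 ranged from 1.13 to 1.88 and that of Nhp2 from 0.30 to 0.50. Those of Gar1, Nop58, Fbl and Nhp2l1 also kept their sign in all 16. Dkc1 kept its sign in 14 of 16 and Nop56 in 15 of 16. With library size alone Nhp2 stood at 0.33, and the median over all genes was -0.12. These ranges describe genes chosen on this comparison, and nothing is read from their stability.

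**Figure D5:**
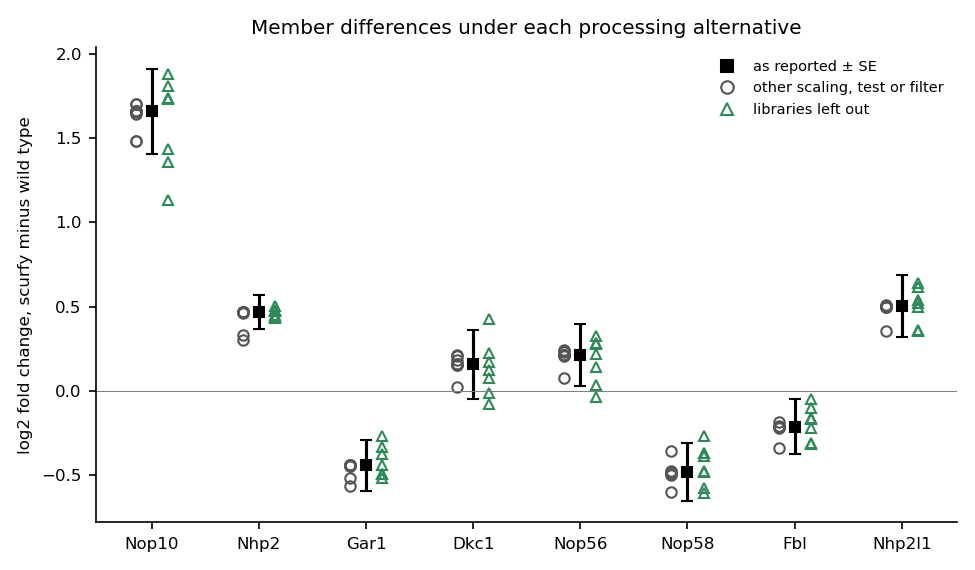
Log2 fold change, scurfy minus wild type (vertical axis), of the 8 snoRNP protein genes as reported (black squares, 1 SE), under other scalings, tests or filters (open circles) and with libraries left out (green triangles). Nop10 stays between 1.13 and 1.88, Nhp2 between 0.30 and 0.50, and Dkc1 and Nop56 reach both sides of 0.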

How the data were processed

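RNA from unstimulated CD8 T cells of 6 libraries was analysed. The submitters' processing notes name Trim Galore 0.4.4, STAR 2.6, featureCounts, edgeR and DESeq2, with no roles, and the genome build NCBIM37. The values show that each deposited signal is a number of reads scaled by its library's size factor; 100% of nonzero values were whole reads within 0.01. The authors' log2 fold change, test score and p-value stand beside it, per the file headers. Both deposited tables hold the same values for the unstimulated libraries, so the stimulated libraries were not analysed here. 3 reads correspond to 1.45 to 3.99 normalized counts.

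Differences were fitted on log2(value + 1) by limma 3.58.1 (R 4.3.3), with trend and robust moderation and Benjamini-Hochberg adjustment at 0.05 over all 11581 genes. The scale understates changes of low genes. Alternatives used edgeR 4.0.16 and DESeq2 1.42.0 on recovered reads, other pseudocounts (0.5 and 5), a minimum mean of 50, other scalings, a length trend, a replicate block and libraries left out. Scripts were tested on simulated data. Within groups, libraries differed by 6.86 to 32.4 times the sampling variance. Lengths and loci came from GENCODE M21 (GRCm38), and copies from BLAST+ 2.17.0.

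The 8 genes and all lists were chosen with earlier results of these data known. Named were all 8 genes, from each list those past the threshold (up to 4 by smallest p) or the smallest p, and the 5 genes most like Nop10 and Nop56. Naf1, Ruvbl2, Rpap3, Pus7l, Wbscr22, Emg1, Ppih and Prpf3 were named after their values were seen. Among the markers, so were H2-Ab1, H2-Eb1, Cd74, Ighm, Cd8a, Cd8b1, Lck, Cd3e and Zap70.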

Additional observations from a re-analysis of the deposited data

How the results depend on the processing

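Of all genes, 518 were called as reported; 999 were called with library size alone (179 higher, 820 lower), 891 with DESeq2, 298 with the length trend removed and 290 without scurfy 3 and wild type 3 together, a pair chosen after seeing the data. Leaving out 1 library gave 113 to 403, the lowest without wild type 3. Of the 8 genes, 2 were called as reported, 1 with the length trend removed and 1 to 2 with 1 library left out. Nhp2 was the gene lost, with the length trend removed and without scurfy 2, wild type 2 or wild type 3. With library size alone 3 were called, Nop10, Gar1 (limma adjusted p = 0.0392) and Nop58 (0.0461), the last 2 as lower. Nhp2 was not called there (limma adjusted p = 0.0661). As the genes were chosen on this comparison, these counts support nothing. Nop10 moved to 1.13, Gar1 to -0.27 and Nop56 to -0.04 on the log2 scale without scurfy 3 and wild type 3, and Nhp2 to 0.33 with library size alone and 0.30 with the length trend removed. The cause was not tested. Same-numbered libraries did not deviate together (correlations -0.03, -0.07 and -0.15), and libraries of unlike number gave -0.12 to 0.16. A lack of shared deviation cannot show whether libraries were taken as pairs, so pairing was not settled. The fit with a replicate block called 372 genes and 2 of the 8, and ended the calls of Znrd1 and Tcof1. Partner genes called were 0 higher and 6 lower with library size alone, and 1 and 1 with the length trend removed. Among markers, leaving out 1 library ended the call of Cd2 in 6 of 6 fits, Klrd1 in 4, Cst3 in 3, H2-Aa in 2 and Car2 in 1, and those of Cd3d and Nkg7 in 0; removing the length trend ended those of Cd2 and Cst3. Counting error was at most 6.95% of a value for Nop10 and 2.85% for Nhp2, whose wild type spread (1.99%) lay below it.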
